A study of Drosophila melanogaster with 6 samples.

Results

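The genes described here encode the subunits of the proteasome. They were chosen by name from a table of 13035 genes: every gene whose name in that table begins with Prosalpha, Prosbeta, Rpn or Rpt, which gave 30 genes. Of these, 19 encode the general subunits of the complex and are called core genes below. The other 11 have names ending in T, R, R1 or R2 and encode paralogs of those subunits that are known for expression in the testis. A further 12 core genes and 3 paralogs stand in the table under older names such as Pros35 or Mov34. The name rule does not reach them, so they are reported separately.

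RNA was measured in whole adult males of Drosophila melanogaster at day 6 of adulthood, in 3 libraries of dERR mutant flies and 3 of control flies. All were of 1 genotype, yw, hsFLP;; dERR[conditional] / dERR2, in which the conditional allele stands opposite dERR2 and the FLP recombinase is under a heat-shock promoter. The mutant group had received 1 h of heat on each of days 5 and 6 AEL (after egg laying), which induces FLP. The control group had no heat, so the effects of loss of ERR and of the heat treatment cannot be told apart. The labels do not say that the libraries of a group came from separate cultures, so p-values measure the spread between these libraries, which may be technical. ERR is an orphan nuclear receptor known as a regulator of energy metabolism.

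The proteasome is the cell's main machine for degrading proteins tagged with ubiquitin. Its proteolytic barrel is a stack of rings: the alpha subunits form the outer rings and the gate, and the beta subunits form the inner rings that hold the proteolytic sites. A regulatory cap sits on the barrel, in which Rpt subunits are ATPases that unfold and thread the substrate, and Rpn subunits bind, deubiquitinate and position it. In Drosophila many subunits have a second gene copy used in the male germline, where the paralog can take the place of the general subunit during sperm formation.

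The libraries held 13987814 to 16102936 reads assigned to genes. ERR (FBgn0035849; 3L:8176460-8179771, dm3) had 112, 119 and 107 normalized counts in the mutant libraries, against 373, 497 and 539 in the control libraries. Its log2 change was -2.03 ± 0.13 (SE; adjusted p = 3.58e-06, limma), and each mutant library was below each control library. Over the whole table, 617 genes passed an adjusted p of 0.05 upward and 1234 downward (limma-trend on log2(normalized count + 1), Benjamini-Hochberg over all genes), and the median log2 change was 0.00. Whole males contain testis: 35 of 36 listed testis markers were measured, none was at 0 in all libraries, and their summed normalized counts were 183150 to 202090 in mutant and 153020 to 184630 in control libraries. Control library 1 stood apart in these markers, with a median of -0.24 on the log2 scale relative to each gene's mean over the 6 libraries. The other 5 libraries had medians of 0.02 to 0.14.

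The core genes had slightly lower estimates in dERR mutant flies, and no single gene passed the test. All 19 log2 changes were below 0, with a median of -0.10 and a range of -0.21 to -0.00. The highest was Prosalpha7, at -0.0012, whose estimate in the authors' deposited table was above 0 (0.0025). Of the whole table, 49.5% of genes had a change below 0. Of all genes, 14.2% passed an adjusted p of 0.05 in either direction. None of the 19 passed it downward, where 9.47% of all genes did, and none upward, where 4.73% did. The lowest adjusted p among them was 0.0917 (limma). At an unadjusted p of 0.05, 4 of 19 were lower and 0 higher, against 14.9% and 11.8% of all genes. The authors' deposited table, made with DESeq2, also called none of the 30 genes, where it called 13.5% of the genes to which it gave an adjusted p. It listed 4 of the 30 at an unadjusted p under 0.05 (DESeq2). These were the core genes Rpn1, Rpn11 and Rpn12, lower, and the testis paralog Prosbeta5R, higher. The share of all genes at that p in the authors' table was not worked out.

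The mutant and control libraries did not overlap for 9 of the 19 core genes, each time with the mutant libraries lower. Of all genes, 16.9% were separated in that direction and 15.7% in the other, in which no core gene was. Summed over the 19 genes, the normalized counts were 32061, 32922 and 30771 in mutant libraries 1 to 3, against 34923, 33113 and 34761 in control libraries 1 to 3. The sums of the groups did not overlap, but mutant library 2 and control library 2 lay close together. Within the mutant group, library 3 was the lowest for 14 of the 19 genes and library 2 the highest for 14. Within the control group, library 2 was the lowest for 13 and library 1 the highest for 12. The core genes thus moved largely together from library to library, and they are not 19 independent observations. In a bulk sample, fewer cells of a type and less RNA per cell cannot be told apart.

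**Figure D1:**
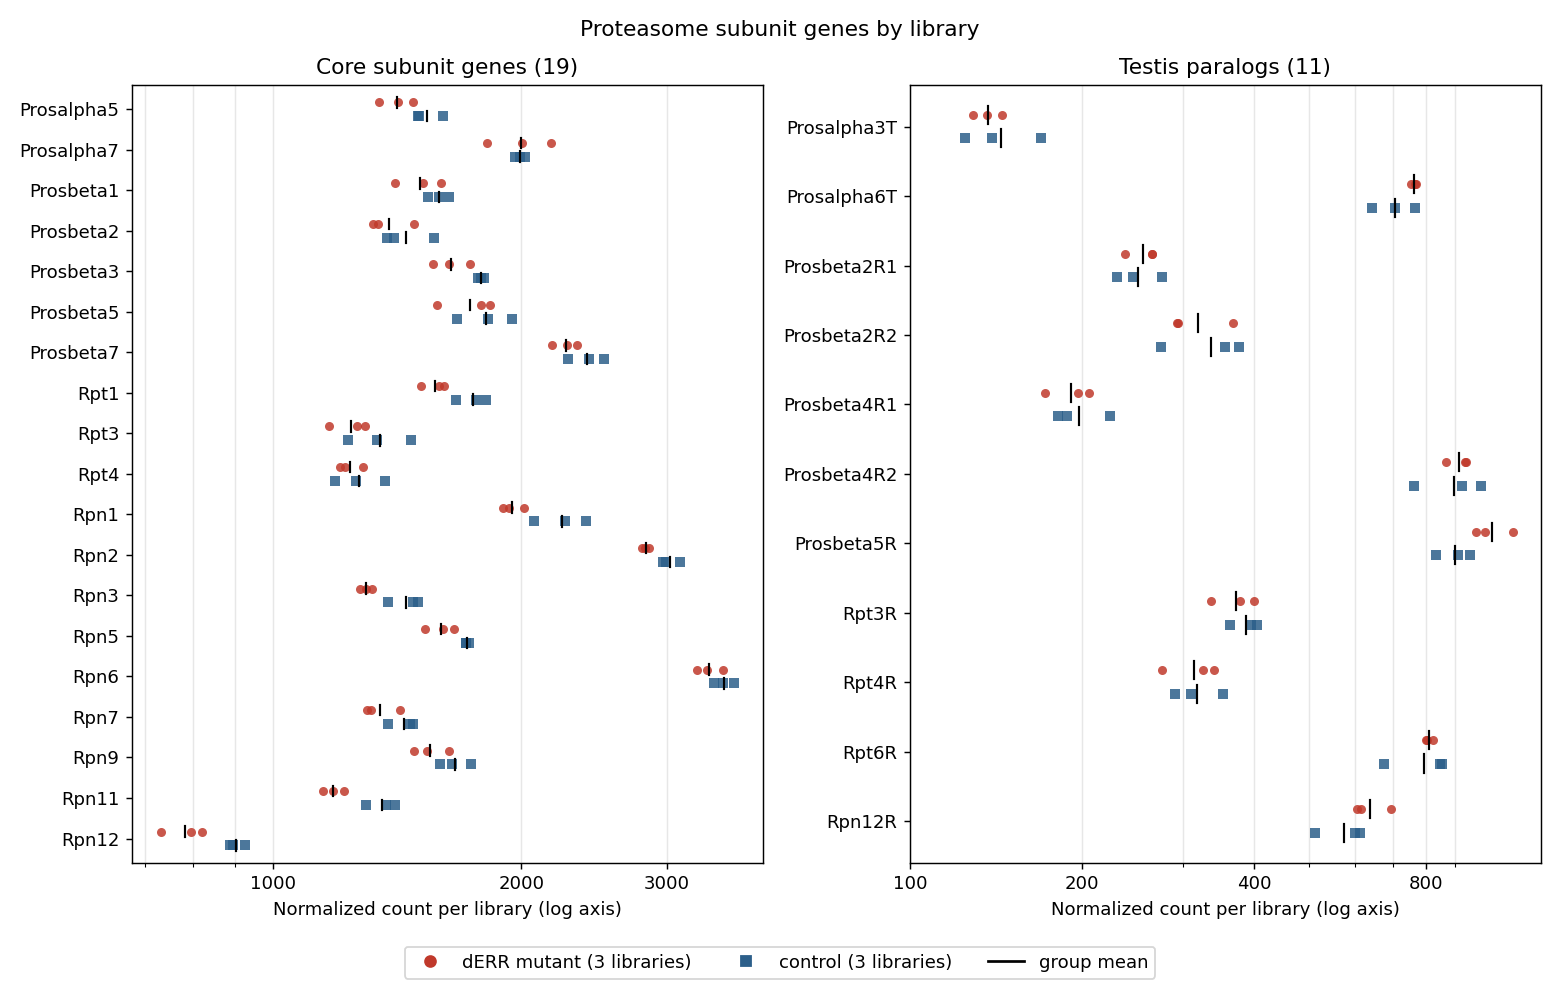
Normalized counts (log axis) of the 30 proteasome subunit genes in each library, with dERR mutant libraries above control libraries for each gene. Each point is a library and each short bar the mean of 3. The mean of the mutant libraries lies left of that of the control libraries for every core gene except Prosalpha7, and the groups are separated for 9 of 19. The testis paralogs overlap except Prosbeta5R.

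The alpha ring was represented by Prosalpha5 and Prosalpha7, whose products sit in the outer ring through which substrates enter the barrel. Prosalpha5 (FBgn0016697; 2R:13300268-13301274, dm3) had 1477, 1417 and 1347 normalized counts in mutant libraries, against 1610, 1501 and 1504.5 in control libraries. All 3 mutant libraries were below the lowest control library, with a log2 change of -0.12 ± 0.07 (adjusted p = 0.311, limma). Prosalpha7 (FBgn0023175; 2R:5734140-5735341, dm3) had 2005.5, 2170 and 1815 in mutant libraries, against 1966, 1993 and 2021 in control libraries. Here the mutant libraries held both the highest and the lowest of the 6 values. Its means were 1997 ± 177 in mutant and 1994 ± 27.4 in control flies (SD, n = 3 each), and the estimate was -0.00 with a 95% interval of -11.4% to 12.6%.

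Among the beta subunits, Prosbeta1, Prosbeta2 and Prosbeta5 carry the proteolytic sites, which cut after acidic, basic and hydrophobic residues. Prosbeta5 (FBgn0029134; 2R:6707468-6708685, dm3), the hydrophobic one, had 1787, 1834 and 1583.5 normalized counts in mutant libraries, against 1949, 1671 and 1825 in control libraries. The groups overlapped, with a log2 change of -0.07 ± 0.08. Prosbeta1 and Prosbeta2 had log2 changes of -0.08 ± 0.07 and -0.07 ± 0.08, also with overlapping groups. For these 3 catalytic subunits the 95% intervals together ran from -16.0% to 8.81%. Prosbeta3 (FBgn0026380; 3R:4831034-4831948, dm3), a ring subunit without a proteolytic site, was the only beta gene whose groups were separated. It had 1634, 1734 and 1566 in mutant libraries, against 1805, 1772 and 1787 in control libraries, a log2 change of -0.12 ± 0.07 (adjusted p = 0.297, limma). Prosbeta7, another ring subunit without a proteolytic site, had a log2 change of -0.09 ± 0.07 and overlapping groups.

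The ATPases of the cap covered by the name rule are Rpt1, Rpt3 and Rpt4. Rpt1 (FBgn0028687; 2R:3539944-3541453, dm3) had 1514, 1614 and 1590.5 normalized counts in mutant libraries, against 1764.5, 1666 and 1812 in control libraries. Every mutant library was below every control library, with a log2 change of -0.15 ± 0.07 (adjusted p = 0.192, limma). Rpt3 and Rpt4 overlapped between groups, with log2 changes of -0.11 ± 0.08 and -0.04 ± 0.08. Rpt1 lies within CG17985 on the same strand over 1510 bases, a gene at 11.2% of its level.

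The non-ATPase subunits of the cap held 6 of the 9 core genes with separated groups and all 4 with an unadjusted p under 0.05, and they make up 9 of the 19. This share depended on the name rule. With older names added, groups were separated downward for 6 of 12 non-ATPase, 4 of 6 ATPase, 3 of 6 alpha and 1 of 7 beta genes. At an unadjusted p of 0.05 (limma), 4, 2, 2 and 0 of them were lower. Of all genes, 16.9% were separated downward and 14.9% were lower at that p. Rpn11 (FBgn0028694; 2L:5058403-5059790, dm3), the metalloprotease that removes ubiquitin chains from the substrate, had 1152, 1182 and 1219 normalized counts in mutant libraries, against 1407, 1297 and 1370.5 in control libraries. The mutant libraries lay below the control libraries with no overlap, at a log2 change of -0.20 ± 0.07 (adjusted p = 0.0917, limma). Rpn12 (FBgn0028693; 3L:16576127-16577122, dm3), a subunit of the lid, had 796, 820 and 733 in mutant libraries, against 927, 896 and 889 in control libraries. It had the lowest log2 change of the 19, -0.21 ± 0.07 (adjusted p = 0.0936, limma), and its groups were separated. Rpn1 (FBgn0028695; 3L:19908150-19911260, dm3), a large scaffold subunit that docks ubiquitin receptors, had 2015, 1899 and 1932 in mutant libraries, against 2260, 2074 and 2396 in control libraries. Its groups were separated too, at a log2 change of -0.20 ± 0.07 (adjusted p = 0.110, limma).

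Rpn3 (FBgn0261396; 2L:19051829-19053681, dm3), another lid subunit, had 1299, 1319 and 1277 normalized counts in mutant libraries, against 1499, 1379 and 1479 in control libraries. The groups did not overlap, with a log2 change of -0.16 ± 0.07 (adjusted p = 0.160, limma). Rpn2, the second large scaffold, and the lid subunit Rpn5 were separated with smaller differences, at log2 changes of -0.10 ± 0.06 and -0.11 ± 0.07. The lid subunits Rpn6, Rpn7 and Rpn9 overlapped between groups, at log2 changes of -0.06 ± 0.07, -0.10 ± 0.07 and -0.10 ± 0.07. Under the deposited scaling, the 95% intervals of all 19 core genes, each taken gene by gene, lay between -22.7% and 12.6%. Other scalings, given below, shift these limits. Rpn7 overlaps CG34376 by 90 bases, a gene at 61.0% of its level. No source used here gives the strand setting of the counting, so part of those reads may belong to the neighbour.

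**Figure D2:**
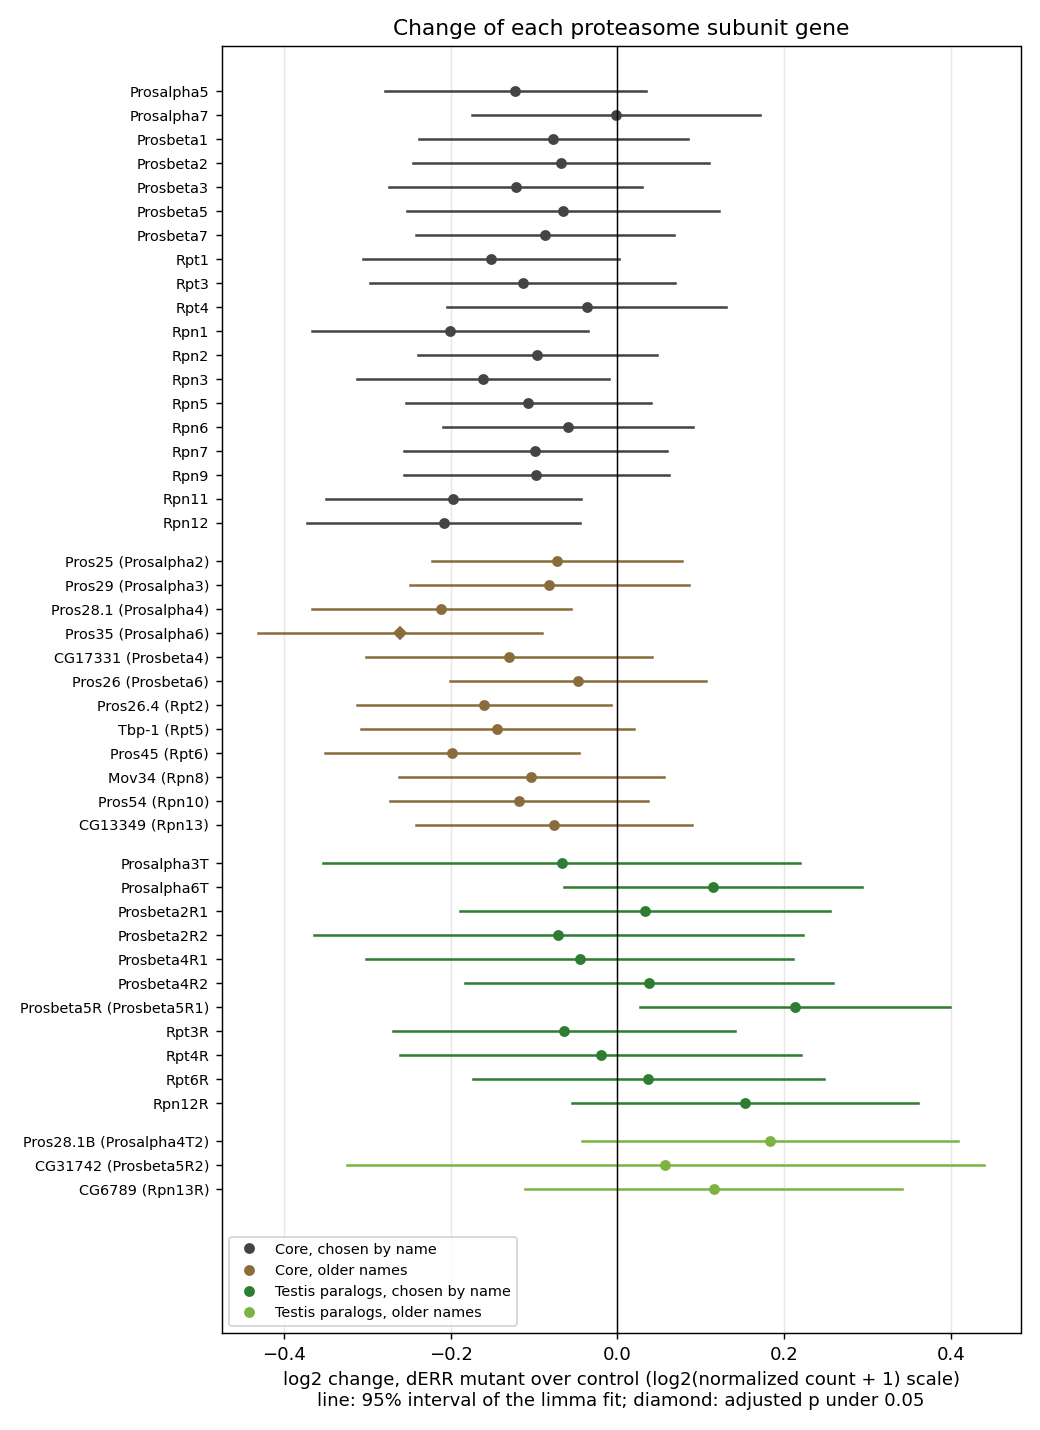
Log2 change, dERR mutant over control, of every proteasome subunit gene, with the 95% interval of the limma fit as a line. Points left of 0 are lower in mutant flies. All core genes, whether under current or older table names, have a point estimate left of 0, the testis paralogs scatter on both sides, and the diamond marks Pros35, which passed an adjusted p of 0.05.

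The sign of the core genes depended on how libraries were scaled to each other. With scaling to the total of reads assigned to genes, the median of all genes was 0.09 and 13 of the 19 core genes had a change below 0, with a median of -0.01, where 34.5% of all genes were below 0. With scaling to 87 cytoplasmic ribosomal protein genes, the median of all genes was -0.15, the median of the core genes was -0.26, and 7 core genes passed downward (Rpt1, Rpn1, Rpn11, Rpn12, Rpn3, Prosalpha5 and Prosbeta3), where 15.7% of all genes did. Upper quartile scaling left 17 of 19 below 0, and quantile normalization 16 of 19. Relative to the median of all genes, the core median was -0.10 under the deposited scaling and under each of these 4. Library size, upper quartile and ribosomal protein scaling use 1 factor per library, which shifts all genes nearly alike. They could therefore not have changed this difference. Leaving out control library 1 gave a median of -0.09 with 18 of 19 below 0, so the small difference did not rest on that library.

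The 12 core genes under older names were also estimated lower in mutant flies. All 12 had a log2 change below 0, with a median of -0.12, and 5 had separated groups, against 49.5% and 16.9% of all genes. With scaling to ribosomal protein genes 6 of them passed downward, where 15.7% of all genes did. One passed the test: Pros35, which encodes the alpha ring subunit Prosalpha6 (FBgn0250843; 2L:10221352-10222503, dm3). It had 1023, 954 and 937 normalized counts in mutant libraries, against 1229, 1081 and 1183 in control libraries. The groups were separated, and Pros35 fell by 0.26 ± 0.08 on the log2 scale (adjusted p = 0.0463, limma), or 16.5%. The call was narrow: in the authors' deposited table its adjusted p was 0.0537. It was lost with scaling to library size (adjusted p = 0.128), with upper quartile, quantile or testis marker scaling, and when any library other than control library 2 was left out (limma adjusted p = 0.0596 to 0.158).

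The ubiquitin receptors of the cap stand under older names as Pros54 (Rpn10) and CG13349 (Rpn13), with log2 changes of -0.12 ± 0.07 and -0.08 ± 0.07 and overlapping groups. Mov34 (Rpn8), the partner of Rpn11, had a change of -0.10 ± 0.07. It overlaps slik by 2654 bases, a gene at 200% of its level. The ATPase genes Pros26.4 (Rpt2), Tbp-1 (Rpt5) and Pros45 (Rpt6) had separated groups and changes of -0.16 ± 0.07, -0.14 ± 0.07 and -0.20 ± 0.07. Pros45 overlaps CG1801 by 1464 bases, a gene at 53.6% of its level. Pros28.1 (Prosalpha4) was separated as well, at -0.21 ± 0.07 (adjusted p = 0.0751, limma). The remaining 4, Pros25 (Prosalpha2), Pros29 (Prosalpha3), CG17331 (Prosbeta4) and Pros26 (Prosbeta6), had overlapping groups and changes of -0.13 to -0.05. With both kinds of names, 31 of 31 core genes had estimates below 0, 14 had groups separated downward and 1 passed downward. Of all genes, 49.5%, 16.9% and 9.47% did.

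Levels are compared between genes as normalized counts per kb of coding sequence. The core genes spanned a 3.98-fold range in mutant flies, where Rpn1 at 707 per kb was the lowest, the median was 1282 and Prosbeta7 at 2815 was the highest. In control flies they spanned a 3.68-fold range, with Rpn1 at 814, a median of 1449 and Prosbeta7 at 2991. Among the 19 genes chosen by name, those of the barrel stood above those of the cap except Rpn6. The 5 beta genes had a median of 2246 per kb in mutant and 2366 in control flies, while the 3 ATPase genes had medians of 1041 and 1087. The 9 non-ATPase genes had medians of 1061 and 1142. Rpn6 stood at 2563 in mutant and 2669 in control flies. The older-named genes blur this order: the barrel genes Pros35, Pros28.1 and CG17331 stood at 1160.1, 1344.5 and 1434 per kb in mutant flies, among cap genes such as Pros26.4 at 1418 and Pros54 at 1627. These are descriptions per coding length, and reads over untranslated parts of the transcripts raise them by an amount that was not measured.

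The testis paralogs had estimates on both sides of 0. Of the 11, 5 had a log2 change below 0 and 6 above, with a median of 0.03 and a range of -0.07 to 0.21. None passed an adjusted p of 0.05 in either direction (limma), where 9.47% of all genes did downward and 4.73% upward. At an unadjusted p of 0.05, 1 was higher and 0 lower, against 11.8% and 14.9% of all genes. The 95% intervals of the 11 lay between -22.3% and 31.9%. Summed over the 11, normalized counts were 5688, 6049 and 5536 in mutant libraries, against 4894, 5903 and 5714 in control libraries 1 to 3. The groups overlapped, and control library 1 was below the other 5.

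Control library 1, the one with low testis markers, was the lowest control library for all 11 paralogs and the lowest of the 6 libraries for 8. Without it, 8 of the 11 had a change below 0 and their median was -0.07. The sign of the group therefore rested on that library. It also turned with scaling: 11 of 11 were above 0 with scaling to library size, and 10 of 11 below 0 with scaling to ribosomal protein genes, where 78.1% of all genes were below 0. Scaled to the testis markers, which moves the median of all genes to -0.16, the paralogs had a median of -0.13 with 10 of 11 below 0, and the core genes a median of -0.26 with 19 of 19 below 0, where 79.1% of all genes were. With that scaling 0 core genes and 0 paralogs passed downward (limma), where 9.8% of all genes did.

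**Figure D3:**
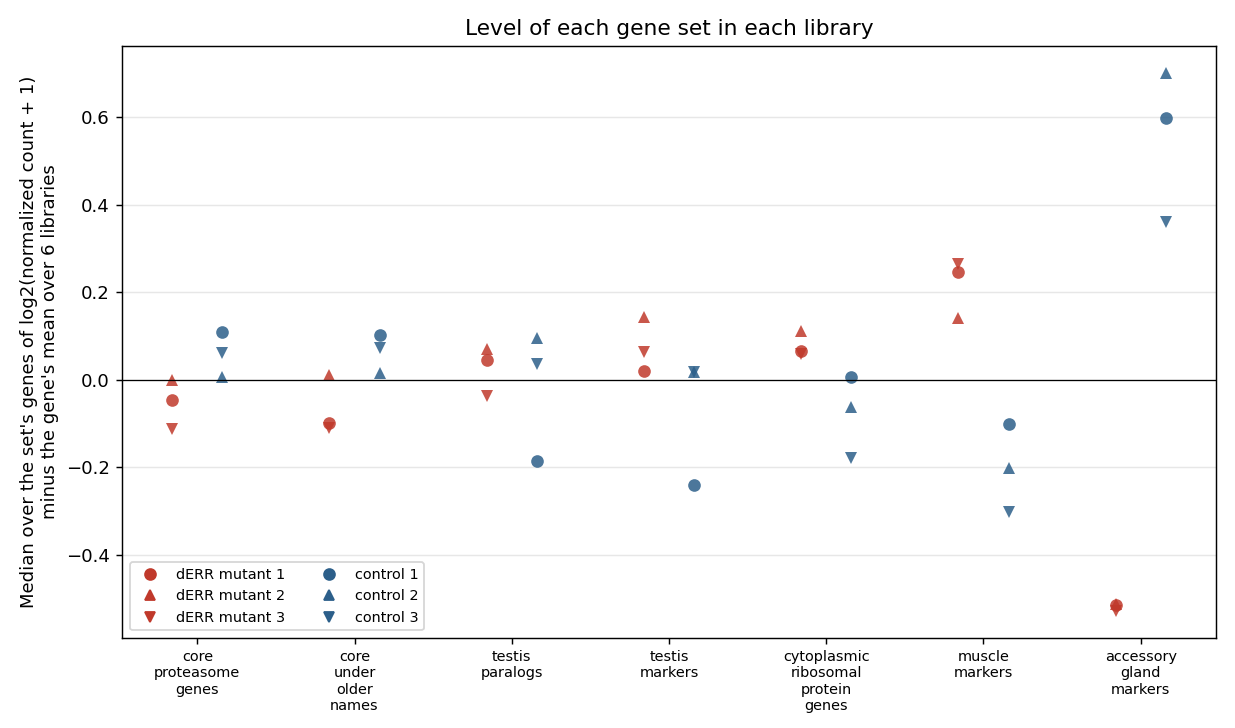
Median log2 level of gene lists in each library relative to each gene's mean over the 6 libraries, with dERR mutant libraries left of control libraries. The core proteasome genes lie between -0.11 and 0.00 in mutant and between 0.01 and 0.11 in control libraries. The testis paralogs and the testis markers both have their lowest point in control library 1, at -0.19 and -0.24.

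Prosbeta5R (FBgn0034842; 2R:19196176-19197339, dm3) is the testis copy of the catalytic subunit Prosbeta5. It was the one paralog with separated groups, at 1016, 1137 and 980 normalized counts in mutant libraries, against 834, 956 and 911 in control libraries. Of all genes, 15.7% were separated in that direction. The log2 change of Prosbeta5R was 0.21 ± 0.08 (adjusted p = 0.132, limma). With scaling to library size it was 0.30 and passed (adjusted p = 0.0468, limma), as did 9.92% of all genes in that direction. Rpn12R (FBgn0036465; 3L:15034730-15035670, dm3), the copy of Rpn12, had 616, 694 and 607 in mutant libraries, against 511, 614 and 600.2 in control libraries, a log2 change of 0.15 ± 0.09 with overlapping groups. It lies within Sytbeta on the same strand over 941 bases, a gene at 26.1% of its level. Prosalpha6T (FBgn0032492; 2L:13232038-13233059, dm3), the copy of Prosalpha6 needed for male fertility, had 767, 766 and 753 in mutant libraries, against 644, 708 and 765 in control libraries. Its log2 change was 0.11 ± 0.08 and the groups overlapped by the highest control library.

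The other paralogs overlapped between groups. The ATPase copies Rpt3R, Rpt4R and Rpt6R had log2 changes of -0.06 ± 0.09, -0.02 ± 0.11 and 0.04 ± 0.10. The beta copies Prosbeta2R1, Prosbeta2R2, Prosbeta4R1 and Prosbeta4R2 had changes of 0.03 ± 0.10, -0.07 ± 0.13, -0.05 ± 0.12 and 0.04 ± 0.10. Prosbeta4R1 (2L:2653045-2653926, dm3) and Prosbeta4R2 (2L:2655393-2657102, dm3) are neighbours and copies of the same subunit, yet differed in level, at 297 and 1451 normalized counts per kb in mutant flies and 307 and 1421 in control flies. Prosalpha3T was the least abundant paralog, at 182 per kb in mutant and 192 in control flies, with a log2 change of -0.07 ± 0.13. Reads shared between close copies may be split by the authors' counting in a way that was not tested. The 3 paralogs under older names (Pros28.1B, a copy of Prosalpha4; CG6789, of Rpn13; CG31742, of Prosbeta5) had changes of 0.18 ± 0.10, 0.12 ± 0.10 and 0.06 ± 0.17, and none passed. CG6789 lies within rg over 1093 bases, a gene at 531% of its level.

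Set against the core gene that each copies, per kb of coding sequence, the 11 paralogs stood at 9.28% to 101% in mutant flies and at 9.26% to 91.0% in control flies. Prosbeta4R2 was the most abundant relative to its core gene CG17331 (Prosbeta4), at 101% ± 5.44 in mutant and 91.0% ± 15.1 in control flies (SD, n = 3 each). In whole males its RNA was thus about as abundant per coding length as that of the general subunit, with untranslated parts not accounted for. Prosalpha3T was the least, at 9.28% ± 0.45 of Pros29 (Prosalpha3) in mutant and 9.26% ± 1.52 in control flies.

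With all libraries the ratio was higher in mutant flies for 10 of the 11 pairs, a count that rests on control library 1, and the groups did not overlap for 2. Prosalpha6T stood at 72.4%, 77.5% and 77.7% of Pros35 in mutant libraries, against 50.6%, 63.2% and 62.4% in control libraries. Every mutant library was above every control library, by 0.38 on the log2 scale. Rpn12R stood at 78.0%, 85.3% and 83.5% of Rpn12 in mutant libraries, against 55.6%, 69.1% and 68.0% in control libraries, also with no overlap and a log2 difference of 0.36. Prosbeta5R stood at 50.9%, 55.5% and 55.4% of Prosbeta5 in mutant libraries, against 38.3%, 51.2% and 44.7% in control libraries, where mutant library 1 lay just under control library 2. Over 14 pairs, the 3 older-named copies included, the smallest p that 3 against 3 libraries allow in an exact two-sided permutation test is 0.1. It was reached by 3 of the 14: Prosalpha6T, Rpn12R and the older-named Pros28.1B, which stood at 69.3%, 70.2% and 72.6% of Pros28.1 in mutant libraries, against 44.0%, 63.1% and 56.0% in control libraries (log2 difference 0.39). Adjusted over the 14 pairs, the p of these 3 is 0.467. Control library 1 gave the lowest ratio of the 6 libraries in all 11 pairs. Without it, an alternative chosen after seeing the data, the ratio was higher in mutant flies for 5 of the 11 and lower for 6, with a median log2 difference of -0.01. It was then still higher by 0.27 for Prosalpha6T, 0.26 for Rpn12R and 0.25 for Pros28.1B. With all libraries, the core genes of these 3 pairs had log2 changes of -0.26 (Pros35), -0.21 (Rpn12) and -0.21 (Pros28.1). The paralogs' own changes were 0.11, 0.15 and 0.18, with overlapping groups. A higher ratio in these pairs is thus not by itself a rise of the paralog.

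**Figure D4:**
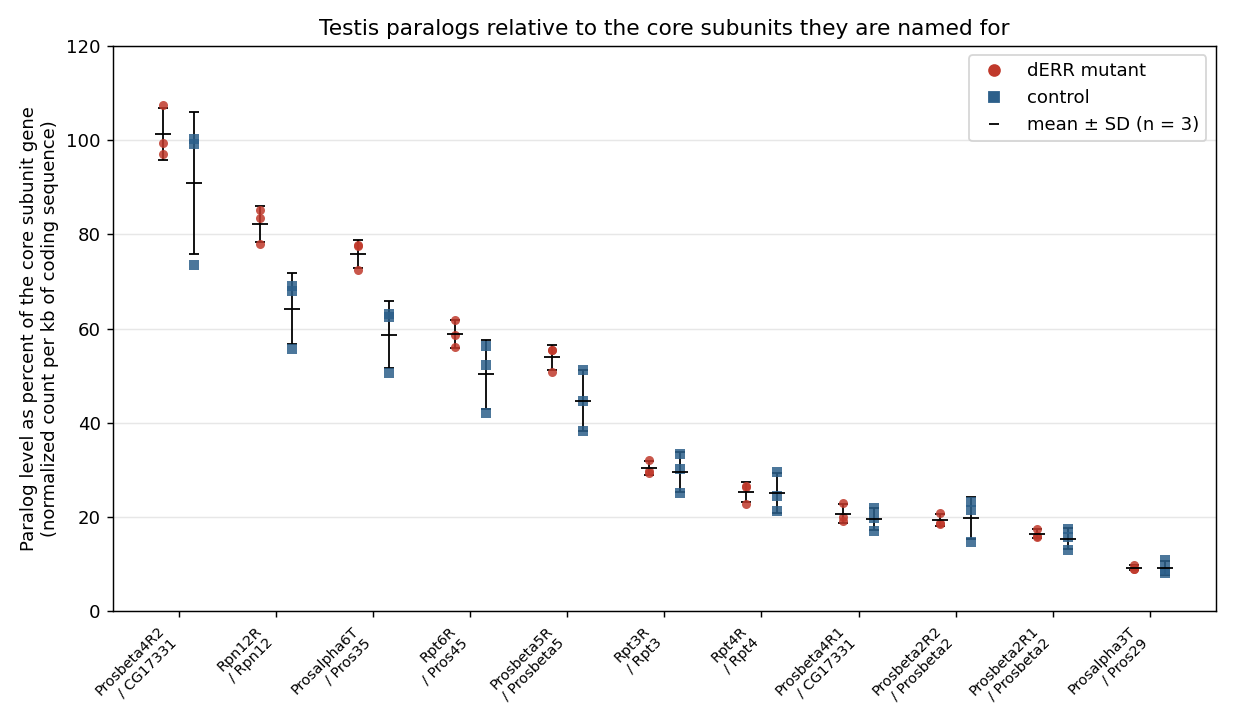
Level of each testis paralog as a percentage of its core gene, per kb of coding sequence, with dERR mutant libraries left of control libraries. Each point is a library. Control library 1 is the lowest point for each of the 11 pairs, and the groups are separated for Rpn12R over Rpn12 and Prosalpha6T over Pros35.

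Genes that build, regulate or feed the proteasome were described from 6 lists. Of 8 genes for proteasome assembly and regulation, 1 fell and 0 rose, where 9.47% of all genes fell and 4.73% rose. Their median log2 change was -0.16, and the groups were separated for 5 downward and 1 upward (REG, a proteasome activator), against 16.9% and 15.7% of all genes. The one that fell was CG12321, whose human counterpart is an assembly chaperone of the alpha ring. It had 993, 1203 and 1058 normalized counts in mutant libraries, against 1461, 1513 and 1484 in control libraries, and fell by 0.46 ± 0.08 on the log2 scale (adjusted p = 0.00300, limma). It overlaps Arp5 by 72 bases, a gene at 42.5% of its level. Of 4 regulators of proteasome gene transcription, Keap1, the inhibitor of the transcription factor Cnc, fell by 0.40 ± 0.09 (adjusted p = 0.0119, limma), and the list median was -0.08. Keap1 was not alone: 2 of the 4 were lower at an unadjusted p of 0.05 (limma), against 14.9% of all genes. Groups were separated downward for 2 of the 4, and 2 of the 4 had estimates above 0. Keap1 had 311, 275 and 267 in mutant libraries, against 362, 386 and 379 in control libraries, with no overlap. Its call was lost without mutant library 3 or control library 3 (adjusted p = 0.0580 and 0.0520, limma). Calls in both lists depended on scaling. Scaled to ribosomal protein genes, 5 of the 8 assembly and regulation genes passed downward. So did 2 of the 4 transcription regulators, where 15.7% of all genes did. Scaled to library size, 1 of the 8 passed upward and 1 downward, where 1293 and 992 of 13035 genes did.

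Of 19 measured genes for ubiquitin, its activating enzyme and its conjugating enzymes, 3 rose and 0 fell, with a median of 0.05, where 4.73% of all genes rose and 9.47% fell. UbcD6, the fly Rad6 conjugating enzyme, had 2404, 2633 and 2207 normalized counts in mutant libraries, against 1882, 1941 and 1731 in control libraries, and rose by 0.38 ± 0.08 (adjusted p = 0.0103, limma). The conjugating enzyme Ubc84D rose by 0.32 ± 0.08 (adjusted p = 0.0208, limma). Of 16 genes for the p97 segregase, shuttle factors and degradation from the endoplasmic reticulum, 1 rose and 0 fell, a share near that of all genes, with a median of -0.00. That gene was Npl4, a cofactor through which p97 binds ubiquitinated proteins, with 17310, 17727 and 17223 in mutant libraries, against 13108, 10596 and 11317 in control libraries. All mutant libraries were above all control libraries, and Npl4 rose by 0.58 ± 0.09 (adjusted p = 0.00136, limma).

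Of 9 COP9 signalosome genes, which encode a complex built like the proteasome lid, 1 rose (CSN1a, 0.31 ± 0.09, adjusted p = 0.0439, limma) and 0 fell, with a median of 0.02. The call of CSN1a was lost without any 1 of the 6 libraries (adjusted p = 0.0552 to 0.122, limma). Of 26 measured genes on a list of chaperones and related heat shock genes, 3 rose and 0 fell, with a median of 0.10. Of all genes, 4.73% rose and 9.47% fell. The 3 were Hsp22 (0.55 ± 0.09), stv, a cochaperone of Hsp70 (0.31 ± 0.08), and CG7033, which encodes the chaperonin subunit CCT2 (0.30 ± 0.08). Hsp22 overlaps Hsp67Bb over 2035 bases, a gene at 104% of its level, so its reads cannot be assigned. The directions of these lists depended on scaling. With ribosomal protein genes 1 of the 19 ubiquitin genes (Uev1A), 3 of the 16 p97 and shuttle genes (sip3, Der-1 and Ubqn) and 1 of the 26 chaperones (Hsp68) passed downward, where 15.7% of all genes did, and the chaperone median was -0.06. Hsp68 also passed downward with testis markers, where the chaperone median was -0.06 as well. With either scaling the calls of UbcD6, Ubc84D, CSN1a, stv and CG7033 were lost, each with the estimate still above 0, and with testis markers also those of Npl4 and Hsp22 (adjusted p = 0.110 and 0.109, limma). UbcD6 was lost without control library 3, and Ubc84D without any library except control 2. The calls of stv and CG7033 were lost without mutant library 1 or 2 or control library 2 or 3.

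Tissue markers moved with the groups, and their part in the values above was not tested. The 35 testis markers had a median log2 change of 0.15, with 27 above 0, 12 at an unadjusted p under 0.05 upward and 0 past the adjusted threshold in either direction. Of all genes, 11.8% had an unadjusted p under 0.05 upward (limma), and past the adjusted threshold 9.47% fell and 4.73% rose. Of 18 measured seminal fluid genes on the accessory gland list 15 fell, with a median of -1.12. Of 24 muscle markers 16 rose, with a median of 0.43. Of 13 gut markers 3 rose and 4 fell, with a median of -0.30, and of 7 measured fat body markers 5 fell, with a median of -1.93. None of the markers was at 0 in all libraries. The 87 ribosomal protein genes had a median of 0.16, with 83 above 0 and none past the threshold, while the core proteasome genes had 19 of 19 below 0. In the whole table, 49.5% of genes were below 0.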

How the data were processed

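Poly(A)-selected, strand-specific libraries of 6 whole-fly RNA samples were analysed. The submitters' processing notes name Novoalign, DESeq2 and the genome build dm3. How reads were counted, with or without strand, and on which annotation release are not stated in these sources. In 1 table the authors deposited 6 library columns of a signal, normalized counts, in each of which every value was a whole multiple of 1 constant (tolerance 1e-06), so that reads per library could be worked out. The deposited table also gives the authors' log2 fold change, a test statistic (a score, not used here) and a p-value per gene, per the file headers.

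From these values a limma-trend fit (limma 3.58.1, R 4.3.3) was made on log2(normalized count + 1), with a group term, no filter, and Benjamini-Hochberg adjustment over 13035 genes at 0.05. All 30 genes entered it. In 3 columns the constant was so near 1 that recovered reads were not accepted as counts for the main test, so the planned count test was not run. Read totals and the limma-voom alternative rest on the recovered reads. Library-size scaling used the summed normalized counts, which in each library are its read total times its constant. Fold changes on this scale understate those of low genes. Intervals are 95% limits of the fit. Python 3.11.15, pandas 2.3.3, numpy 2.4.6 and matplotlib 3.10.9 were used. The fit was tested on simulated data.

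The members and the gene lists were chosen with earlier results of these data known. Named are all genes meeting the name rule, subunit genes under older names, ERR and, for every companion list, at most 4 genes a direction in order of adjusted p, of which the text gives part for marker lists. Some results under this rule are not reported here. Of 189 listed symbols 179 were matched, and 12525 of 13035 identifiers were found in a reference name table. Coordinates are those of the deposited table, and 0 of the 45 subunit genes have the same start in the reference annotation, BDGP6, which gave coding lengths only.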

Additional observations from a re-analysis of the deposited data

How the results depend on the processing

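No paired analysis was possible because the labels give the groups no shared replicate numbers. None of the core genes was called in any setting except scaling to ribosomal protein genes, with 7 lower, and none of the testis paralogs except with scaling to library size, with 1 higher (Prosbeta5R). Over all genes, 1293 were higher and 992 lower with library size, 208 and 2051 with ribosomal protein genes, and 84 and 1277 with testis markers. Without 1 library the counts of higher genes were 330 to 563, lowest without control library 3 and next without mutant library 3 (382), and the lower ones 926 to 1139.

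Signs turned only for estimates that had not passed the test. With library size the log2 change was above 0 for Rpt4 (0.049), Rpn6 (0.027), Prosalpha7 (0.085), Prosbeta1 (0.0095), Prosbeta2 (0.019), Prosbeta5 (0.021), Rpt3R (0.023), Rpt4R (0.066), Prosalpha3T (0.019), Prosbeta2R2 (0.015), Prosbeta4R1 (0.041), CG13349 (0.0097), Pros25 (0.013), Pros29 (0.0048) and Pros26 (0.039). With quantile normalization it was above 0 for Rpt4 (0.012), Rpn6 (0.0011), Prosalpha7 (0.044) and Rpt4R (0.021), and with upper quartile scaling for Rpt4 (0.0018), Prosalpha7 (0.037) and Rpt4R (0.018). With ribosomal protein genes it was below 0 for Rpt6R (-0.12), Rpn12R (-0.0036), Prosalpha6T (-0.042), Prosbeta2R1 (-0.12), Prosbeta4R2 (-0.12), CG6789 (-0.041), CG31742 (-0.099) and the testis marker loopin-1 (-0.011). With testis markers it was below 0 for Rpt6R (-0.13), Rpn12R (-0.010), Prosalpha6T (-0.049), Prosbeta2R1 (-0.13), Prosbeta4R2 (-0.13), CG6789 (-0.048), CG31742 (-0.11), S-Lap1 (-0.00) and loopin-1 (-0.018). The cause was not tested. Leaving out 1 library at a time gave -0.084 to 0.016 for Rpt4, -0.063 to 0.066 for Prosalpha7, -0.12 to 0.0065 for Rpt3R, -0.081 to 0.069 for Rpt4R, -0.072 to 0.094 for Rpt6R, -0.17 to 0.054 for Prosalpha3T, -0.024 to 0.10 for Prosbeta2R1, -0.21 to 0.018 for Prosbeta2R2, -0.10 to 0.047 for Prosbeta4R1, -0.073 to 0.12 for Prosbeta4R2 and -0.18 to 0.23 for CG31742.

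The pseudocount (0.5 or 10), a filter of 5 CPM, a robust prior and limma-voom changed none of the calls of subunit genes. With 3 libraries a group, the fit gave the subunit genes standard errors of 0.06 to 0.17 on the log2 scale, which limits the size of change that can be seen.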
